A study of Rattus norvegicus with 4 samples.

Results

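rno-miR-23a, rno-miR-23b, rno-miR-24, rno-miR-27a and rno-miR-27b are the major mature products of a pair of related microRNA (miRNA) clusters, and they were taken by name from the 680 rat miRNA names that each file of the series lists. All 5 names had a row, and the prefix for rat is left out below. The study made small RNA libraries from total RNA of rat liver labelled as hepatic fibrosis tissue or as normal hepatic tissue, with 2 replicates per label. The labels used here give no strain, age, sex, cause of the fibrosis or statement that replicates came from separate animals, so any spread between these libraries may be technical. Replicate 2 of fibrosis and replicate 2 of normal tissue held 680 identical values, and the column of the latter carries a name that is not its sample title. They were counted as 1 library, called the shared library, whose tissue the labels leave undecided. The other libraries, replicate 1 of each label, are called the fibrosis-only and the normal-only library, which makes 3 distinct libraries.

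A miRNA guides a silencing complex to messenger RNAs mainly through its seed, bases 2 to 8 from its 5′ end, so miRNAs with the same seed share many targets. Each cluster is transcribed as 1 primary RNA that holds a miR-23, a miR-27 and a miR-24 hairpin, and each hairpin can give a major and a minor arm. In liver, members of the miR-23b cluster have been described as repressors of Smad genes, which carry TGF-beta signalling. The miR-27 miRNAs have been described in rat hepatic stellate cells, which make collagen in fibrosis, where they repress the retinoid X receptor alpha. miR-23a and miR-23b repress glutaminase, and miR-24 represses cell cycle genes.

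The mature sequences show why the 5 names form 3 seed groups and why the a and b forms are hard to tell apart. They are given 5′ to 3′ from RefSeq (GRCr8), with the seed in capitals, and all 5 names matched.
miR-23a: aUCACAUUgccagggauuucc
miR-23b: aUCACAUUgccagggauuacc
miR-27a: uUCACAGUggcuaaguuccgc
miR-27b: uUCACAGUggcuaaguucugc
miR-24: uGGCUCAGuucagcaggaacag
miR-23a and miR-23b differed at 1 of 21 bases, U19A with positions counted from the 5′ end and the a form first. miR-27a and miR-27b likewise differed at 1 of 21 bases, C19U. The first 18 bases of each pair are the same, so a read that ends before base 19 fits both names. How such reads were assigned is not given in the sources used here, and the separate a and b values are uncertain for that reason. Among the 693 mature names of the RefSeq table, no other name had any of these 3 seeds at bases 2 to 8. The letters of the miR-27 seed stood 1 base earlier in miR-128, and those of the miR-24 seed 1 base earlier in miR-222-5p.

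In the RefSeq annotation of GRCr8 the a cluster lies at chr19:40859455-40859843 on the minus strand and spans 389 bases, in the order Mir23a, Mir27a, Mir24-2. It stands between the protein-coding genes Zswim4 and Nanos3, with neither reaching into it. The b cluster lies at chr17:1818669-1819482, also on the minus strand, and spans 814 bases in the order Mir23b, Mir27b, Mir24-1. All 3 of its hairpins fall within the protein-coding gene Aopep, and Mir24-1 also overlaps the protein-coding gene Fancc. The submitters' processing notes name the older build rn5, and the deposited files hold no coordinates. Mature miR-24 has the same sequence at both loci, so its reads cannot be assigned to a cluster.

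The values are reads per 1000000 reads (RPM), which the authors computed. They were scaled to totals of 6357069 to 7070374 reads, of which 50.45% to 52.53% fell on listed miRNAs. miR-122, the defining hepatocyte miRNA, took 47.19% to 50.92% of the listed reads. The 5 members together held 1016 reads in the fibrosis-only library, 883 in the normal-only library and 992 in the shared library, or 0.029%, 0.0242% and 0.0297% of the listed reads. The intervals below are exact (Clopper-Pearson) 95% binomial intervals of reads. They cover counting error only, as these reads carry no molecular identifiers and may be copies of 1 molecule.

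miR-23a was the most abundant member by RPM, or level with the most abundant, in all 3 libraries. It stood at 55.4 RPM in the fibrosis-only library, 49.1 RPM in the normal-only library and 49.4 RPM in the shared library, ranks 37, 39 and 40 of 250, 239 and 236 detected miRNAs. miR-23b stood at 26.2 RPM, 31.5 RPM and 25.0 RPM in the same order, on 182, 223 and 159 reads. Its level was highest in the normal-only library. By these point levels the 2 miR-23 forms did not share an order of libraries. For each of these forms, however, the counting intervals of the 3 levels overlapped, and the full order of libraries was not resolved beyond counting error. Such overlap does not compare the forms with each other. The ratio of miR-23a to miR-23b was 1.36 times as high in the fibrosis-only as in the normal-only library (1.06 to 1.75). Between the shared library and each of the others the interval of this comparison included 1. miR-24 stood at 37.3 RPM in the fibrosis-only library, 28.0 RPM in the normal-only library and 48.8 RPM in the shared library. Its level was lowest in the normal-only library and highest in the shared one, and the counting intervals of the 3 levels did not overlap (24.2 to 32.2, 32.9 to 42.1 and 43.5 to 54.5 RPM from lowest to highest).

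The miR-27 forms were the least abundant members. miR-27b stood at 20.6 RPM, 15.0 RPM and 21.4 RPM in the fibrosis-only library, the normal-only library and the shared library, on 143, 106 and 136 reads. miR-27a stood at 6.76 RPM, 1.27 RPM and 11.5 RPM, on 47, 9 and 73 reads. It ranked 79, 139 and 69 among the detected miRNAs, and its level in the normal-only library was low by a wide margin: the interval there reached 2.42 RPM, while that of the fibrosis-only library began at 4.97 RPM and that of the shared library lay higher still.

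**Figure D1:**
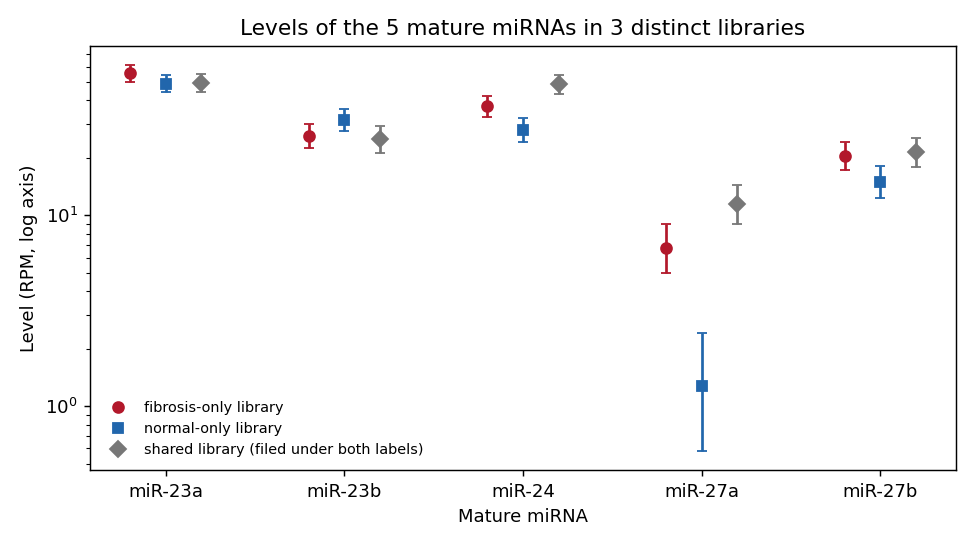
Level of each of the 5 mature miRNAs in RPM on a log axis, for the fibrosis-only library (circles), the normal-only library (squares) and the shared library (diamonds); bars are 95% counting intervals. miR-27a has the widest spread, from 1.27 RPM in the normal-only library to 11.5 RPM in the shared library, and miR-23a the narrowest, from 49.1 to 55.4 RPM.

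Mature miRNAs of 21 and 22 bases need no length correction, so the RPM levels were set side by side within a library. How the kit's preparation steps affected individual miRNAs was not tested. In the fibrosis-only library the order of levels was miR-23a, miR-24, miR-23b, miR-27b and miR-27a, and each neighbouring pair differed beyond counting error. In the normal-only library miR-23b and miR-24 were not separated beyond counting error: miR-23b took 53.0% of the reads of the pair (48.1 to 57.8). In the shared library miR-23a and miR-24 were not separated (50.3% miR-23a, 46.3 to 54.3), nor were miR-23b and miR-27b (53.9% miR-23b, 48.0 to 59.7). miR-27a was last in all 3.

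The a and b forms had opposite orders in the miR-23 and miR-27 groups, in all 3 libraries. miR-23a took 67.9% of the miR-23 reads in the fibrosis-only library (63.9 to 71.7), 60.9% in the normal-only library (56.7 to 64.9) and 66.4% in the shared library (61.9 to 70.6). miR-27a took 24.7% of the miR-27 reads (18.8 to 31.5), 7.83% (3.64 to 14.3) and 34.9% (28.5 to 41.8). By the names the reads were given, the a form was thus the more abundant miR-23 and the less abundant miR-27. Reads that end before base 19 fit both forms, and these shares depend on how such reads were assigned. No interval reached 50%, and a share within a library does not depend on how the library was scaled.

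Members of 1 primary transcript were unequal in reads, and the miR-23 to miR-27 ratio of the a cluster was above that of the b cluster in each library, with intervals that did not overlap. miR-23a had 8.19 reads for each miR-27a read in the fibrosis-only library (6.04 to 11.3), 38.6 in the normal-only library (20.1 to 85.0) and 4.30 in the shared library (3.33 to 5.63). miR-23b had 1.27 reads for each miR-27b read (1.02 to 1.60), 2.10 (1.66 to 2.68) and 1.17 (0.924 to 1.48). In both clusters the normal-only library had the highest ratio of miR-23 to miR-27.

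**Figure D2:**
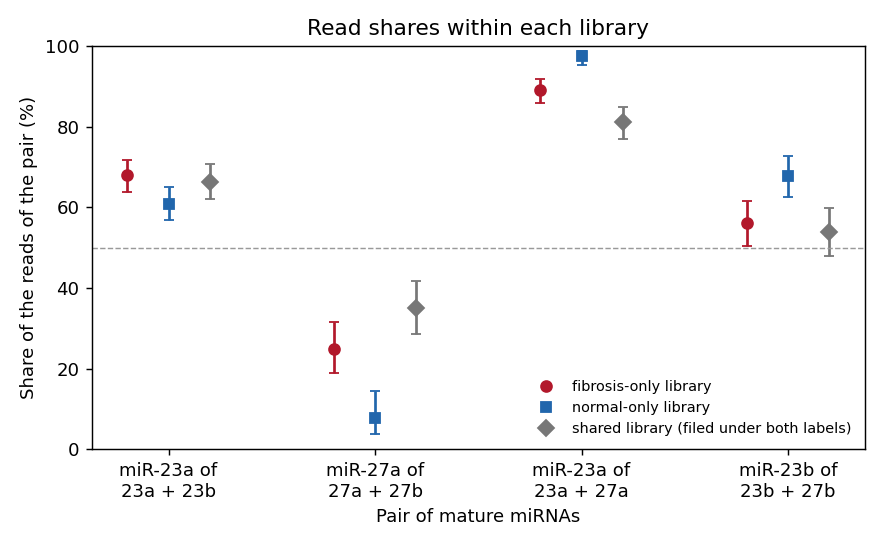
Share of the first-named miRNA among the reads of the pair (percent), with exact 95% binomial intervals, for the fibrosis-only library (circles), the normal-only library (squares) and the shared library (diamonds); the dashed line is 50%. miR-23a lies above 50% of the miR-23 reads and miR-27a below 50% of the miR-27 reads in each library, with miR-27a at 7.83% in the normal-only library.

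These shares differed between libraries by more than counting error in 6 of 8 pairs of members between the fibrosis-only library and the normal-only library. The 8 pairs reuse the 5 members, so they are not independent, and pairs of other miRNAs were not counted for comparison. Of the 147 single miRNAs averaging at least 1 RPM in these libraries, 13.6% had an RPM ratio interval above 1 and 22.4% below 1. The ratio of miR-27a to miR-27b was 3.86 times as high in the fibrosis-only library as in the normal-only library (exact conditional interval 1.77 to 9.35), and the ratio of miR-23a to miR-23b 1.36 times (1.06 to 1.75). The ratio of miR-23b to miR-27b was 0.605 times that of the normal-only library (0.434 to 0.842) and that of miR-23a to miR-27a 0.213 times (0.0903 to 0.448). The pairs whose intervals included 1 were miR-23a with miR-24 (0.848, 0.666 to 1.08) and miR-27b with miR-24 (1.03, 0.746 to 1.43). The interval for miR-27b with miR-24 also included 1 between the shared library and each of the others. It was the only one of the 8 pairs for which that held in all 3 library pairs. Between the shared library and the fibrosis-only library the ratio of miR-27a to miR-27b differed 1.63 times (1.03 to 2.59). By the names the reads were given, the proportion of the 2 miR-27 forms thus differed between any 2 libraries. Reads that end before base 19 fit both forms, and this proportion depends on how they were assigned.

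Between the fibrosis-only library and the normal-only library, miR-27a, miR-27b and miR-24 had higher RPM in the fibrosis-only library and the intervals of both miR-23 forms included 1 (they excluded 1 under 2 of 6 scalings each, the deposited one and 5 alternatives). The RPM ratio was 5.31 for miR-27a (2.57 to 12.3), 1.37 for miR-27b (1.06 to 1.78) and 1.33 for miR-24 (1.10 to 1.61). It was 1.13 for miR-23a (0.974 to 1.31) and 0.830 for miR-23b (0.679 to 1.01). Of the 147 miRNAs that averaged at least 1 RPM in these libraries, 13.6% had an interval above 1 and 22.4% an interval below 1, against 3 and 0 of the 5 members. Only miR-27a among the members was at least 1.5-fold higher, as were 8.16% of the 147, and its ratio was the second highest. The median ratio was 1.33 over the 5 members and 0.916 over the 147 miRNAs. The members were chosen with results of these data known, and with 1 library on each side the difference has no replicate check.

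The shared library set against the normal-only library gave ratios of 9.02 for miR-27a (4.50 to 20.5), the highest of 148 miRNAs, 1.74 for miR-24 (1.45 to 2.09) and 1.43 for miR-27b (1.10 to 1.86). miR-23b was lower, at 0.793 (0.643 to 0.976, an interval that excluded 1 under 3 of 6 scalings), and miR-23a was at 1.01 (0.861 to 1.18). Here 18.2% of the 148 miRNAs had an interval above 1 and 29.7% an interval below 1, against 3 and 1 members. This pair shares the normal-only library with the pair above and is no second test of it. Set against the fibrosis-only library, the shared library had more miR-27a (1.70, 1.16 to 2.51) and more miR-24 (1.31, 1.11 to 1.55), and the intervals of the other 3 members included 1. That of miR-23a, at 0.892 (0.766 to 1.04), lay below 1 under 2 of 6 scalings. Of the 147 miRNAs of that pair, 20.4% had an interval above 1 and 22.4% an interval below 1, against 2 and 0 members. The shared library thus differed from both others in miR-27a and miR-24.

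**Figure D3:**
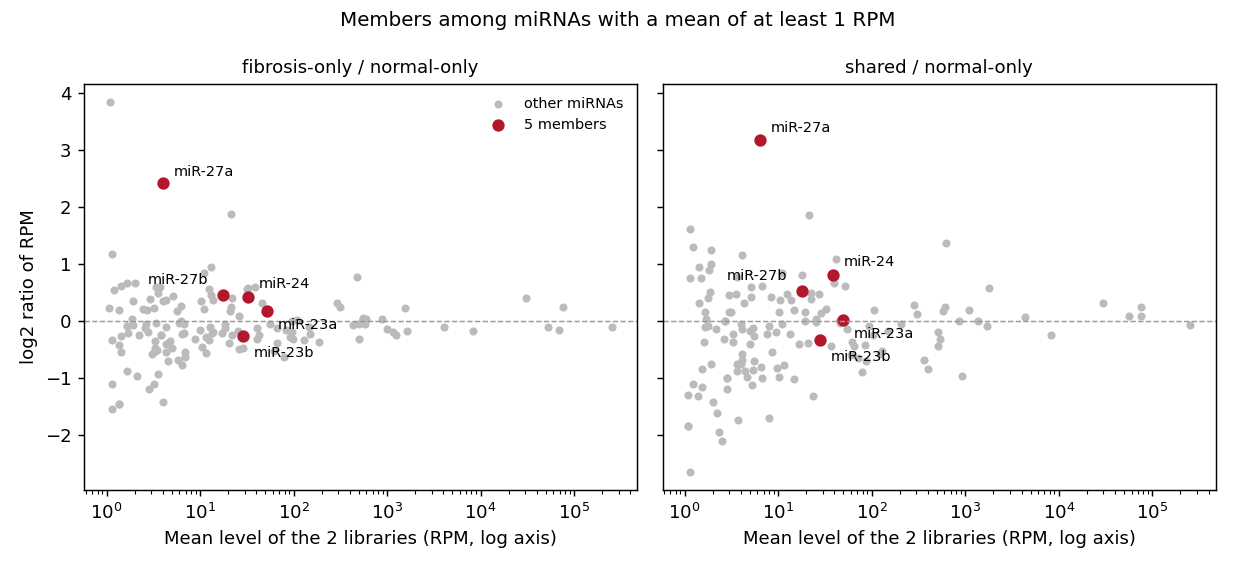
log2 ratio of RPM against mean RPM (log axis) for miRNAs averaging at least 1 RPM, with the 5 members in red and the others in grey; left, the fibrosis-only library over the normal-only library (147 miRNAs), right, the shared library over the normal-only library (148 miRNAs). miR-27a stands at log2 2.41 on the left and 3.17 on the right, while the other 4 members lie among miRNAs of similar level.

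Summed by seed, the miR-23 group lay near a ratio of 1, on a side that changed with the scaling, and the miR-27 group lay above it. The miR-23 forms together stood at 81.6 RPM in the fibrosis-only library, 80.6 RPM in the normal-only library and 74.4 RPM in the shared library, with a ratio of 1.01 for the fibrosis-only over the normal-only library (0.899 to 1.14). The interval of the miR-23 sum lay below 1 under 1 of 6 scalings for the shared over the normal-only library and under 2 of 6 for the shared over the fibrosis-only library. The miR-27 forms together stood at 27.3 RPM, 16.3 RPM and 32.9 RPM, with a ratio of 1.68 (1.33 to 2.14). Summed by cluster, without miR-24, miR-23b and miR-27b stood at 46.8, 46.5 and 46.4 RPM, and miR-23a and miR-27a at 62.1, 50.4 and 60.9 RPM. The ratio of the fibrosis-only over the normal-only library was 1.005 for the b sum (0.859 to 1.18) and 1.23 for the a sum (1.07 to 1.42). The b sum, whose side of 1 also changed with the scaling, adds a miR-23b at 0.830 and a miR-27b at 1.37. The a sum adds a miR-23a at 1.13, with an interval that included 1, and a miR-27a at 5.31, with 9 reads in the normal-only library.

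**Figure D4:**
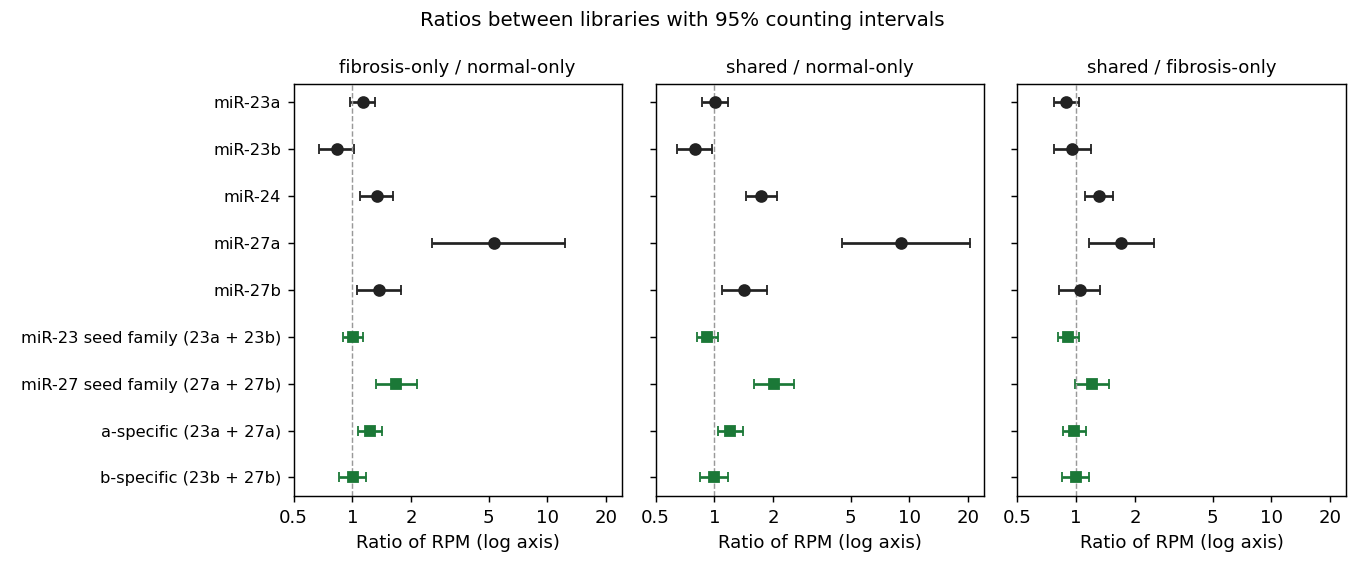
RPM ratios between the 3 pairs of distinct libraries on a log axis with 95% counting intervals, for the 5 members (black circles) and 4 sums of members (green squares); the dashed line is 1. miR-27a lies at 5.31, 9.02 and 1.70 from left to right, and the b-specific sum at 1.005, 0.997 and 0.993.

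Minor arms of the miR-23 and miR-27 hairpins were found almost only for the b cluster. The hairpins are shown because both arms of Mir23b and Mir27b were read while those of Mir27a gave reads from 1 arm (RefSeq, GRCr8, minus strand, annotated arms in capitals, the major arm second).
Mir23b: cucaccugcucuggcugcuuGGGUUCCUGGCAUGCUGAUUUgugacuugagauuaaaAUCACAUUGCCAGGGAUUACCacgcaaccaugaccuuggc
Mir27b: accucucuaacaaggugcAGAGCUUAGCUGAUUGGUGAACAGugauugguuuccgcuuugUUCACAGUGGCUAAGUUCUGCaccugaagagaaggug
Mir27a: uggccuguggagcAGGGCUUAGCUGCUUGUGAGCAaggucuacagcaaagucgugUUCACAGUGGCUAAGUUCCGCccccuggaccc
miR-23b*, the minor arm of Mir23b, stood at 4.75 RPM in the fibrosis-only library, 8.20 RPM in the normal-only library and 6.92 RPM in the shared library. That was 15.3% (10.8 to 20.9), 20.6% (16.1 to 25.8) and 21.7% (16.2 to 28.0) of the reads of both arms. miR-23a* had 0, 2 and 0 reads, and over the 3 libraries 0.191% of the reads of both arms (0.0231 to 0.688), although miR-23a outnumbered miR-23b. Summed over the libraries miR-23b* had 135 reads against 2, a ratio of 67.5 (18.3 to 563).

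miR-27b* had 11, 5 and 7 reads, or 7.14% (3.62 to 12.4), 4.50% (1.48 to 10.2) and 4.90% (1.99 to 9.83) of the reads of both arms. miR-27a* had 0 reads in each library. A count of 0 allows up to 3 reads, or 0.432, 0.424 and 0.472 RPM in the fibrosis-only library, the normal-only library and the shared library, and 2.33% of both arms' reads over the 3 libraries. In the normal-only library alone, with 9 miR-27a reads, it allows up to 33.3%, so a low share was not shown there. miR-23b* was lower in the fibrosis-only than in the normal-only library beyond counting error, at a ratio of 0.579 (0.366 to 0.902). Of the 147 miRNAs in that pair 10.9% were lower by at least 1.5-fold, as it was, and 22.4% had an interval below 1.

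**Figure D5:**
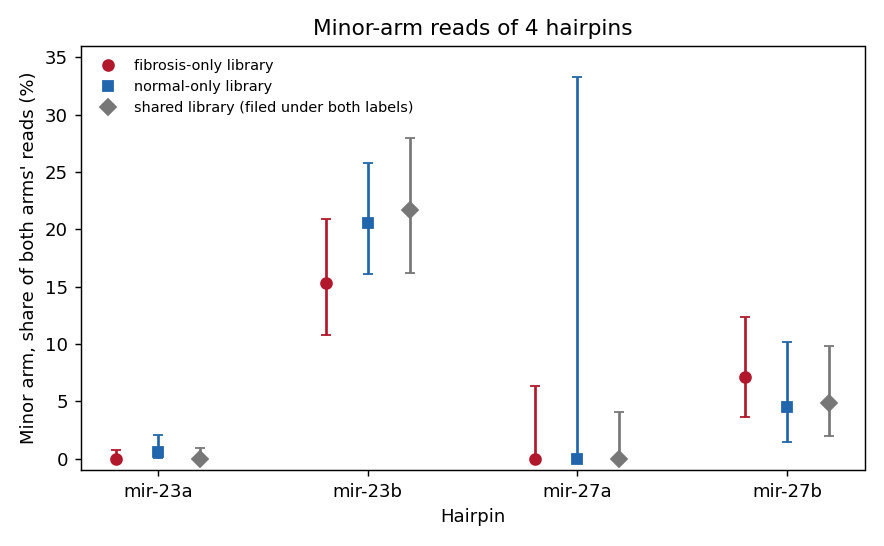
Share of the minor arm among the reads of both arms (percent) for the miR-23a, miR-23b, miR-27a and miR-27b hairpins in the 3 distinct libraries; bars are exact 95% intervals, or for 0 reads the limit that 3 reads allow. The miR-23b hairpin lies at 15.3% to 21.7%, and the miR-23a and miR-27a hairpins at or near 0%. For miR-27a in the normal-only library, with 9 reads, the limit is 33.3%.

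The minor arms of miR-24 are the products that could tell its loci apart, and they were too rare to do so. They are shown with the bases that differ between them in capitals.
miR-24-1*: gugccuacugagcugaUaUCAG
miR-24-2*: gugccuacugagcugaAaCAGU
miR-24-1*, from the b cluster, had 0 reads in all 3 libraries. miR-24-2*, from the a cluster, had 2 reads in the fibrosis-only library and 0 in the others. The annotation also places Mir3074 across Mir24-1, and miR-3074 had 0 reads in all 3. The share of each cluster in the 198 to 310 reads of miR-24 was not detectable at this depth.

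miRNAs with the most similar profile were sought by Euclidean distance between log2(RPM + 1) values centred over the 3 libraries, among the 148 miRNAs that averaged at least 1 RPM. With 3 points this is a description of the libraries. Nearest to miR-24 were miR-126 (distance 0.0394), miR-150 (0.0464) and miR-322* (0.131), the first an endothelial and the second a lymphocyte miRNA. Those first 2 had only 8 to 17 and 4 to 11 reads, where adding 1 RPM shrinks differences, and their RPM ratios of the shared over the normal-only library were 2.36 and 3.06, against 1.74 for miR-24. They are thus not a match in RPM. Nearest to miR-27b were miR-872 (0.0328), miR-322 (0.0906) and miR-99b (0.111). Nearest to miR-23a were miR-28 (0.0788), let-7i (0.0792) and miR-128 (0.0842), and nearest to miR-23b were miR-505* (0.0343), miR-664-2* (0.0556) and the hepatocyte miRNA miR-192 (0.0559). miR-322, miR-28 and miR-505* stood at 2.05 to 4.17 RPM, and the added 1 bears on their distances too. miR-27a had no close neighbour: its nearest were miR-146b (0.578), miR-199a-3p (0.864) and miR-142-5p (1.08).

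Markers of other liver cell types were read beside miR-24 and miR-27a, whose levels rank the libraries as normal-only, fibrosis-only and shared from low to high. The summed levels of 3 lists had that order, but each sum was mostly 1 miRNA. The order was taken from the members' own levels, and its share among all miRNAs was not counted. The 2 endothelial miRNAs summed to 6.51 RPM in the normal-only library, 7.77 RPM in the fibrosis-only library and 10.9 RPM in the shared library, of which miR-126* gave 75.4% to 82.6%. Both had the order, with no ratio interval that excluded 1. The 4 mesenchymal and smooth muscle miRNAs summed to 464, 667 and 1007 RPM, of which miR-199a-3p gave 350, 592 and 903 RPM. Only 2 of these 4 had the order: miR-143 stood at 97.3, 62.1 and 91.2 RPM and miR-145 at 13.7, 9.21 and 6.92 RPM, with ratios of the fibrosis-only over the normal-only library of 0.639 (0.565 to 0.721) and 0.671 (0.482 to 0.930). The 4 leukocyte miRNAs summed to 28.0, 41.9 and 59.6 RPM, of which miR-142-5p gave 26.4, 39.4 and 56.0 RPM, and 3 of the 4 had the order. The exception, miR-142-3p, had 5, 3 and 4 reads. Of those with the order, miR-223 had 2, 7 and 8 reads and miR-150 had 4, 7 and 11. Their ratio intervals of the fibrosis-only over the normal-only library included 1 (0.678 to 35.1 and 0.453 to 8.29). miR-143, miR-145, miR-142-3p, miR-223 and miR-150 are named here because of their values. The 3 hepatocyte miRNAs summed to 272148, 251792 and 255470 RPM and the 2 erythroid miRNAs to 7.78, 2.88 and 2.05 RPM. No marker in these 5 lists was at 0 in any library. Their part in the differences of miR-24 and miR-27a was not tested, and in bulk tissue fewer cells of a type and less RNA per cell cannot be told apart.

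A list of 12 other miRNAs described in liver fibrosis or stellate cells did not lie on 1 side. The levels of 2 of the 12 ranked the libraries as those of miR-24 and miR-27a did. Between the fibrosis-only and normal-only libraries, 5 of the 11 that averaged at least 1 RPM were higher and 6 lower, 3 each with intervals that excluded 1, and the median ratio was 0.916, the same as over the 147 miRNAs. Its most abundant members were miR-29a, a repressor of collagen genes, miR-21, miR-199a-3p and miR-29c. Their ratios were 0.881 (0.858 to 0.904), 0.897 (0.867 to 0.927), 1.69 (1.61 to 1.78) and 0.790 (0.719 to 0.867).

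In the design the labels give, limma on the 4 files called 0 of 294 miRNAs at an adjusted p under 0.05 (0%). None of the 5 members was thus called. An unadjusted limma p under 0.05 was found for 4 miRNAs, with miR-27a (0.029) among them. On the recovered reads edgeR's quasi-likelihood test and DESeq2 each called 0, with 1 and 0 miRNAs at an unadjusted p under 0.05. The fitted log2 differences, fibrosis minus normal on the log2(RPM + 1) scale, were 0.89 for miR-27a (SE 0.40), 0.22 for miR-27b (SE 0.36), 0.20 for miR-24 (SE 0.34), 0.09 for miR-23a (SE 0.33) and -0.13 for miR-23b (SE 0.35), each with a limma adjusted p of 1. For miR-27a the adjusted p lay between 0.393 and 1 over the alternatives in limma, edgeR and DESeq2. Since 1 library stands in both groups, each fitted difference averages the contrast of the fibrosis-only with the normal-only library and a 0, and the SE of this fit came from the trend over all miRNAs.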

How the data were processed

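The labels' protocols give total RNA of rat liver and libraries for small RNA by an Illumina kit. CASAVA 1.4 and the build rn5 are named in the submitters' processing notes. No aligner, miRNA annotation or rule for reads that match several names is given in the sources used here. The authors deposited RPM per miRNA name. All values above 0 (100%) were whole multiples of 1 read within 0.01 reads, which gave each library's total and reads.

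Ratios of RPM between libraries carry the exact binomial interval of the reads. Shares carry exact binomial intervals, and ratios of shares exact conditional ones (scipy 1.17.1, Python 3.11.15). These intervals are no test of the conditions. The labelled groups were compared on log2(RPM + 1), over miRNAs above 0 in any library, by limma 3.58.1 (R 4.3.3) with trend and Benjamini-Hochberg adjusted p-values. The recovered reads were also tested by edgeR 4.0.16 and by DESeq2 1.42.0. The intervals of RPM ratios and the limma fit were tested on simulated reads. For the limma fit a pass was required only in a layout of separate libraries, which these data do not have. The alternatives covered the scaling, pseudocounts, filters, the test, the replicate number as a block and left-out libraries.

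The members and lists were chosen with earlier results of these data known. The text names the 5 members, the minor arms of their hairpins, the 3 nearest profiles of each member, the 4 most abundant miRNAs of the fibrosis list and, of the cell type markers, sums over lists, with a few markers named after their values were seen. Of the minor arms, 5 of 6 had a RefSeq sequence. miR-128, miR-222-5p and miR-3074 are named for their sequence or position.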

Additional observations from a re-analysis of the deposited data

How the results depend on the processing

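The ratios of miR-24 and miR-27a excluded 1 in all 3 library pairs under the deposited scaling and all 5 others. That of miR-27b over the normal-only library did so in both pairs that use it. The intervals of miR-23a and miR-23b in the fibrosis-only over the normal-only library excluded 1 under 2 of the 6 scalings each, and that of miR-23b in the shared library over the normal-only library under 3 of 6. For the shared over the fibrosis-only library, miR-23a and the miR-23 sum excluded 1 under 2 of 6 each. The b sum changed its side of 1 under 2, 3 and 2 scalings, without an interval that excluded 1. Upper-quartile factors raised all ratios of the shared library to the fibrosis-only library by 0.21 on the log2 scale. For that pair they moved the sum of the 5 members to 1.24, the miR-23 sum to 1.06 and the a sum to 1.13. For the shared over the normal-only library they moved the sum of the 5 members to 1.38. Over the 3 libraries summed, miR-23a took 65.0% of the miR-23 reads, miR-27a 25.1% of the miR-27 reads and miR-23b 59.4% of its reads with miR-27b. miR-23a took 89.0% with miR-27a and 57.7% with miR-24, miR-27a took 14.4% with miR-24 and miR-23b 42.4% with miR-24. In 12 of 24 cases the summed share lay outside the interval of a single library, although it includes that library's reads and has an error of its own, so this is no test of a difference.

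Among miRNAs averaging at least 10 RPM, 5 of 76 miRNAs were at least 1.5-fold higher and 1 lower in the fibrosis-only than in the normal-only library, against 12 and 16 of 147. For the shared library the counts were 8 and 12 of 73 against 20 and 42 of 148 over the normal-only library, with 28 against 44 intervals below 1, and 5 and 9 of 72 against 22 and 25 of 147 over the fibrosis-only library. miR-27a was not among miRNAs of that level.

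No miRNA was called under any of the 13 alternatives in limma, edgeR or DESeq2, with 0 to 36 at an unadjusted p under 0.05. Counting the shared library once in either group is the same fit as leaving out its file in the other, so 11 of the 13 are distinct. The replicate block gave 0 calls too, with an adjusted p of 0.602 for miR-27a. The fitted difference of miR-27a, 0.89, was 0.29 with a pseudocount of 10, 0.54 with edgeR and 0.50 with DESeq2. Leaving out 1 library moved it from -0.34 to 2.11. The ranges were -0.19 to 0.59 for miR-24, -0.027 to 0.46 for miR-27b, 0.0045 to 0.17 for miR-23a and -0.29 to 0.032 for miR-23b. Without the normal-only library, 4 of the 5 differences turned: miR-27a to -0.34, miR-24 to -0.19, miR-27b to -0.027 and miR-23b to 0.032. The shared library then is the only normal one, so by construction no separate normal library remains. Counting it once gave miR-27a 2.11 as fibrosis (limma adjusted p 0.393) and 0.54 as normal (limma adjusted p 0.949). In these fits the lone library takes its spread from the other group. Depth limits miR-27a most, with 9 reads in the normal-only library.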
